A study of Homo sapiens with 4 samples.

Results

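The heat shock and immediate early genes are 35 human genes chosen by their known function, of 20037 protein-coding genes in the RefSeq table of GRCh38. The choice was made with earlier results of these data known, so the list is not independent of the peaks. They fall into 15 chaperone genes and 20 genes of the early response, most of them transcription factors. Peaks of p53 ChIP-seq near these genes were counted in 2 libraries of H1299 cells given wild-type p53, called p53WT, and 2 libraries of H1299 cells given the CASM34 mutant. H1299 is an established line of non-small-cell lung carcinoma, and its genotype in the labels is p53-/-, so in both groups the precipitated p53 is the introduced one. The series title speaks of synonymous mutations found in cancer, which change a codon and not the amino acid. The labels do not give the vector, the level of p53 or any stress treatment, and in all libraries p53 was precipitated with the antibody DO-1. The libraries of each group are numbered 1 and 2, and nothing says whether they came from separate cultures, so p-values take in the variation among these libraries alone, and that variation may be technical.

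Chaperones such as the HSP70 and HSP90 proteins fold or refold other proteins, and heat or misfolded protein raises their transcription through the heat shock factor HSF1. Immediate early genes such as FOS, JUN and EGR1 are switched on within minutes of a growth signal or a stress, before any new protein is made, and most encode transcription factors or their inhibitors. Both sets are short genes with promoters that are kept ready for fast transcription, and p53 is a transcription factor that is itself activated by stress.

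A gene was counted as having a peak when a summit, the highest point of a peak in a library's list, lay within 10 kb of either end of the gene. By this rule p53WT 1 called 2 of the 35 members, where it called 0.968% of all protein-coding genes, and p53WT 2 called 10, where it called 13.8%. The library CASM34 1 called 0 members (1.14% of all genes) and CASM34 2 called 7 (9.44%). At those rates a list of 35 genes would hold 0.339, 4.84, 0.4 and 3.3 called genes. The median gene length was 7.69 kb for chaperones, 4.71 kb for early response genes and 24.1 kb for all genes. The rates were not adjusted for length, though the span searched is smaller around a short gene. The 5 genes called in both libraries numbered 2 were the transcription factor genes JUN, FOSL1, EGR2 and MYC, and IER2, while 4.37% of all protein-coding genes were called in both. Both p53WT libraries called JUN and IER2 (0.734% of all genes), and both CASM34 libraries called 0 members (0.679%).

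Of the 20 early response genes p53WT 1 called 2, JUN and IER2, p53WT 2 called 7, CASM34 1 called 0 and CASM34 2 called 5. The 15 chaperones had a peak in 3 cases in p53WT 2 and 2 in CASM34 2, and in none of the libraries numbered 1. For chaperones these shares, 20.0% and 13.3%, lie nearer the 13.8% and 9.44% of all genes than the shares of the early response genes do. All 5 genes of both libraries numbered 2 were early response genes, and no chaperone was called in more than 1 library. At the 4.37% of all genes called in both libraries numbered 2, 15 chaperones would hold 0.656 such genes and 20 early response genes 0.874. FOSL1 and EGR2, among those 5, had most of their summits nearer another gene. Whether the 2 subsets differ was not tested.

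**Figure D1:**
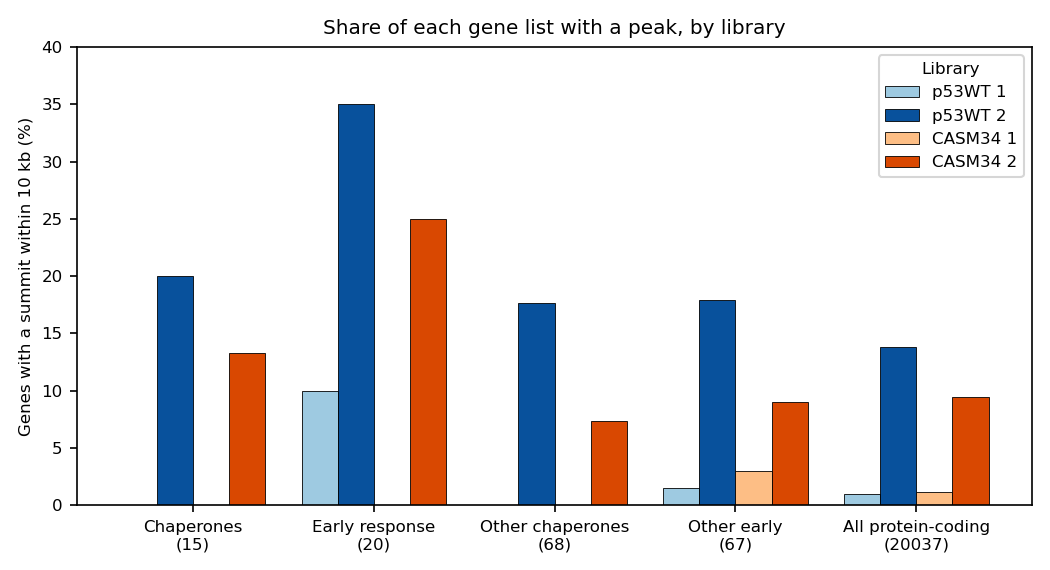
Percent of each gene list with a summit within 10 kb of a gene end (y axis), by list (x axis, number of genes in brackets) and library (bar colour). Early response genes reach 35.0% in p53WT 2 (7 of 20) and stand at 5 of 20 in CASM34 2, against 13.8% and 9.44% of all protein-coding genes, and CASM34 1 called no member.

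The lists differ in length and content between the library numbers. On chromosomes 1 to 22, X and Y the lists of p53WT 1 and CASM34 1 held 1776 and 1884 summits and those of p53WT 2 and CASM34 2 held 5193 and 3448, and 0.284% to 9.14% of protein-coding genes had a summit within 1 kb of an end. Read depth is unknown, and p53 may be present where no peak was listed. In both groups the library numbered 2 called more genes than that numbered 1. With every list cut to 1776 peaks, p53WT 1 and CASM34 1 called 0.968% and 0.938% of all protein-coding genes. In that setting p53WT 2 and CASM34 2 called 3.05% and 3.23%. The cause of the differences between the library numbers was not tested. The fold and −log10 q of a peak are the authors' values, where a higher −log10 q is a more certain peak within its list.

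Promoters are shown for the members with a summit within 1 kb of a start site, to set their sequence beside the peaks. The lines give the 250 bases before the start, 5′ to 3′ on the gene's strand, as RefSeq lists them for GRCh38.p14. Capitals mark every match to the motifs searched on both strands: the heat shock element (GAANNTTC or TTCNNGAA), the CArG box of serum response factor, the cyclic AMP response element CRE (TGACGTCA) and its core TGACG, AP-1 (TGANTCA), the NF-Y box CCAAT, the GC box GGGCGG, the TATA box TATAAA and the p53 decamer, the unit that is repeated in a full p53 response element. The core TGACG lies within TGACGTCA, and the 2 were counted separately.
JUN, chr1:58784048-58784297, minus strand: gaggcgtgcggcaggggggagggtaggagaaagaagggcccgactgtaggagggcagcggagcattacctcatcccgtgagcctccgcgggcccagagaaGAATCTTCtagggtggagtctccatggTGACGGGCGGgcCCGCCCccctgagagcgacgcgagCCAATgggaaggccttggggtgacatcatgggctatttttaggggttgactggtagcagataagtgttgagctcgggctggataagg
JUND, chr19:18281623-18281872, minus strand: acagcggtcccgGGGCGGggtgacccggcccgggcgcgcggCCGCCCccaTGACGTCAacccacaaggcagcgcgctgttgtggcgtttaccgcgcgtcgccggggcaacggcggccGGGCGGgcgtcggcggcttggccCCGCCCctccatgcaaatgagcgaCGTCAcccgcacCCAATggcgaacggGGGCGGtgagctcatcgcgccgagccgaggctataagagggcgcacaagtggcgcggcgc
IER5, chr1:181088450-181088699, plus strand: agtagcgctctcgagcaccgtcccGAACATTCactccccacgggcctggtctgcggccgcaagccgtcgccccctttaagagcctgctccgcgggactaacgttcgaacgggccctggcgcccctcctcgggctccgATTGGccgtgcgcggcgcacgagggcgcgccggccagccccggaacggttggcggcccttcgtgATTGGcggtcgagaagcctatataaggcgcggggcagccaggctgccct
HSPA5, chr9:125241344-125241593, minus strand: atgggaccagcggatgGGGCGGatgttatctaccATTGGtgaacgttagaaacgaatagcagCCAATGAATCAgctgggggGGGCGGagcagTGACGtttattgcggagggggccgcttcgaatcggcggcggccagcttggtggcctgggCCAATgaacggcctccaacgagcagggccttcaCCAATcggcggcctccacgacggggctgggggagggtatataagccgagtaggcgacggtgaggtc
HSP90AA1, chr14:102139750-102139999, minus strand: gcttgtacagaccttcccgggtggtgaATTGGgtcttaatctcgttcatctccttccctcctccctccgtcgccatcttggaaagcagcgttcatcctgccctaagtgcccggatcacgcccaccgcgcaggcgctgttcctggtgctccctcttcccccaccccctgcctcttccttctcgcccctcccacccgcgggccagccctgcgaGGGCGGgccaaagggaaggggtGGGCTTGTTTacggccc
DNAJB1, chr19:14517938-14518187, minus strand: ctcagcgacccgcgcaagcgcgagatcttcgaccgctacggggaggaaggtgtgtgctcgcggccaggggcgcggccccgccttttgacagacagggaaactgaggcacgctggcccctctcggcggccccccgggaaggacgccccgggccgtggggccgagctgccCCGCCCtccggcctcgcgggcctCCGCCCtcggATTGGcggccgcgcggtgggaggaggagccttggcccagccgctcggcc

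In these 250 bases JUN and IER5 each held 1 heat shock element, JUND held 1 CRE and 5 GC boxes, and HSPA5 held 4 NF-Y boxes and 1 AP-1 match. HSP90AA1 held the 1 p53 decamer found in the 6 sequences. All 6 held at least 1 NF-Y box, which was found in listed promoters of 42.1% of all protein-coding genes, and these 6 were picked by their peaks. The summits lay downstream of the start, outside the printed bases, except for DNAJB1, where the summit was inside them. The printed DNAJB1 bases precede 1 of its 3 annotated start sites and lie inside the gene, which runs on to 14560391 on chromosome 19.

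JUN, the central subunit of the AP-1 transcription factor, was called in 3 of the 4 libraries. The distance from the nearer gene end to the nearest summit was 1.2 kb for p53WT 1, 0.565 kb for p53WT 2, 10397.9 kb for CASM34 1 and 0.594 kb for CASM34 2. All these near summits lay inside the gene (chr1:58780791-58784047), between 565 and 1347 bp downstream of the annotated start site. In p53WT 2 there were 2 peaks, with a deposited −log10 q of 3.61 and 3.07, and the second summit lay 29 bp from that of CASM34 2 (−log10 q of 4.11). The peak of p53WT 1 had a −log10 q of 1.66, overlapped the first peak of p53WT 2 by 101 bp and did not meet the peak of CASM34 2. The nearest other protein-coding gene, MYSM1, was at least 82638 bp away, so these peaks belong to no other gene by the distance rule.

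IER2, a small nuclear protein of the early response, was the other member called in 3 libraries. Its nearest summit lay 0.917 kb from a gene end for p53WT 1, 1.31 kb for p53WT 2, 2777.9 kb for CASM34 1 and 1.25 kb for CASM34 2. The summits were inside the gene (chr19:13150411-13154911), 3583, 3191 and 3252 bp downstream of the start site, thus towards its far end. The peak of p53WT 2 (−log10 q of 3.94) overlapped that of CASM34 2 by 272 bp (−log10 q of 3.84). The peak of p53WT 1 (−log10 q of 1.61) overlapped neither. Over all protein-coding genes, 0.883% were called in at least 3 libraries, and 0.245% were called in these 3 and not in CASM34 1.

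MYC, the transcription factor that drives cell growth, had summits 2317 and 3337 bp inside its gene interval in p53WT 2 and 3378 bp inside it in CASM34 2, counted from the lower gene end on chromosome 8. The nearest summits of p53WT 1 and CASM34 1 were 6492.7 and 10463.5 kb away. The 3337 and 3378 bp summits were 41 bp apart, and their peaks overlapped by 179 bp. Their −log10 q was 2.68 and 3.38.

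FOSL1, which encodes the FOS family member FRA-1, and EGR2, a zinc finger transcription factor, were also called in both libraries numbered 2, but most of their summits lay nearer another gene. At FOSL1 (chr11:65892049-65900545) p53WT 2 had a summit 717 bp outside the lower gene end and CASM34 2 had summits 1291 and 1031 bp outside it, against 148.0 kb in p53WT 1 and 986.0 kb in CASM34 1. These 3 summits were inside CCDC85B, at 303, 85 and 345 bp from an end of that gene, and the peaks of both libraries overlapped by 55 bp. A second summit of p53WT 2 lay inside FOSL1, 782 bp from its upper end, with a −log10 q of 2.60.

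At EGR2 (chr10:62811996-62819167) the summits were 7104 and 6576 bp outside the gene in p53WT 2 and 7086 bp outside it in CASM34 2, against 20725.4 kb in p53WT 1 and 7315.7 kb in CASM34 1. All the near summits lay inside ADO, a thiol dioxygenase gene, 172, 700 and 190 bp from its end. The first of p53WT 2 and that of CASM34 2 were 18 bp apart. Counting a summit only for its nearest protein-coding gene, a rule added after the values were seen, left JUN, IER2 and MYC as the members called in both libraries numbered 2, with 3.05% of all protein-coding genes.

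JUND, another AP-1 subunit, and IER5, an early response protein that acts on HSF1, were called in p53WT 2 alone. The summit of JUND lay 0.296 kb from its gene end in p53WT 2, against 2347.9 kb in p53WT 1, 550.0 kb in CASM34 1 and 240.0 kb in CASM34 2. The summit of IER5 lay 0.917 kb from a gene end in p53WT 2, against 7066.9 kb in p53WT 1, 19617.0 kb in CASM34 1 and 42.2 kb in CASM34 2. Both summits were inside the gene, 296 and 917 bp downstream of the start site, with a low −log10 q of 1.68 and 2.23.

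Among the chaperones, p53WT 2 alone called HSPA5, HSP90AA1 and DNAJB1. HSPA5, which encodes the HSP70 protein BiP of the endoplasmic reticulum, had a summit 0.319 kb from its gene end in p53WT 2, against 4738.9 kb in p53WT 1, 87.1 kb in CASM34 1 and 466.0 kb in CASM34 2. The peak (chr9:125240774-125241176) lay inside the gene, its summit 319 bp downstream of the start site. Its fold over background was 6.63 and its −log10 q 6.56, both the highest of any member.

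HSP90AA1, the stress-inducible form of cytosolic HSP90, had a summit 0.251 kb from its gene end in p53WT 2, against 2747.6 kb in p53WT 1, 1246.0 kb in CASM34 1 and 180.0 kb in CASM34 2. This summit (fold 5.60, −log10 q of 5.33) is at the outer of 2 annotated start sites, and the other is at 102087044 on chromosome 14. It also lies inside WDR20, 75 bp from an end of that gene, so that the peak is nearer to WDR20. DNAJB1, an HSP40 co-chaperone, had a summit 3.36 kb from its gene end in p53WT 2, against 1215.8 kb in p53WT 1, 1372.4 kb in CASM34 1 and 673.0 kb in CASM34 2. The DNAJB1 summit was inside the gene, 189 bp before 1 of 3 annotated start sites, at 14517937 on chromosome 19. It had a fold of 5.18 and a −log10 q of 4.39.

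CASM34 2 alone called HSPA1B and BAG3. HSPA1B, a stress-inducible HSP70 gene, had a summit 0.955 kb from a gene end in CASM34 2, against 11539.2 kb in p53WT 1, 2004.7 kb in p53WT 2 and 5670.9 kb in CASM34 1. HSPA1B and its neighbour HSPA1A are near-identical copies, so the placing of reads between them is uncertain, and the peak (−log10 q of 1.72) ranked at or above only 8.44% of its list. BAG3, a co-chaperone of HSP70, had a summit 4.38 kb outside its gene in CASM34 2, against 7269.9 kb in p53WT 1, 868.0 kb in p53WT 2 and 199.0 kb in CASM34 1. It lay 30815 bp downstream of the start site, past the far end of the gene.

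**Figure D2:**
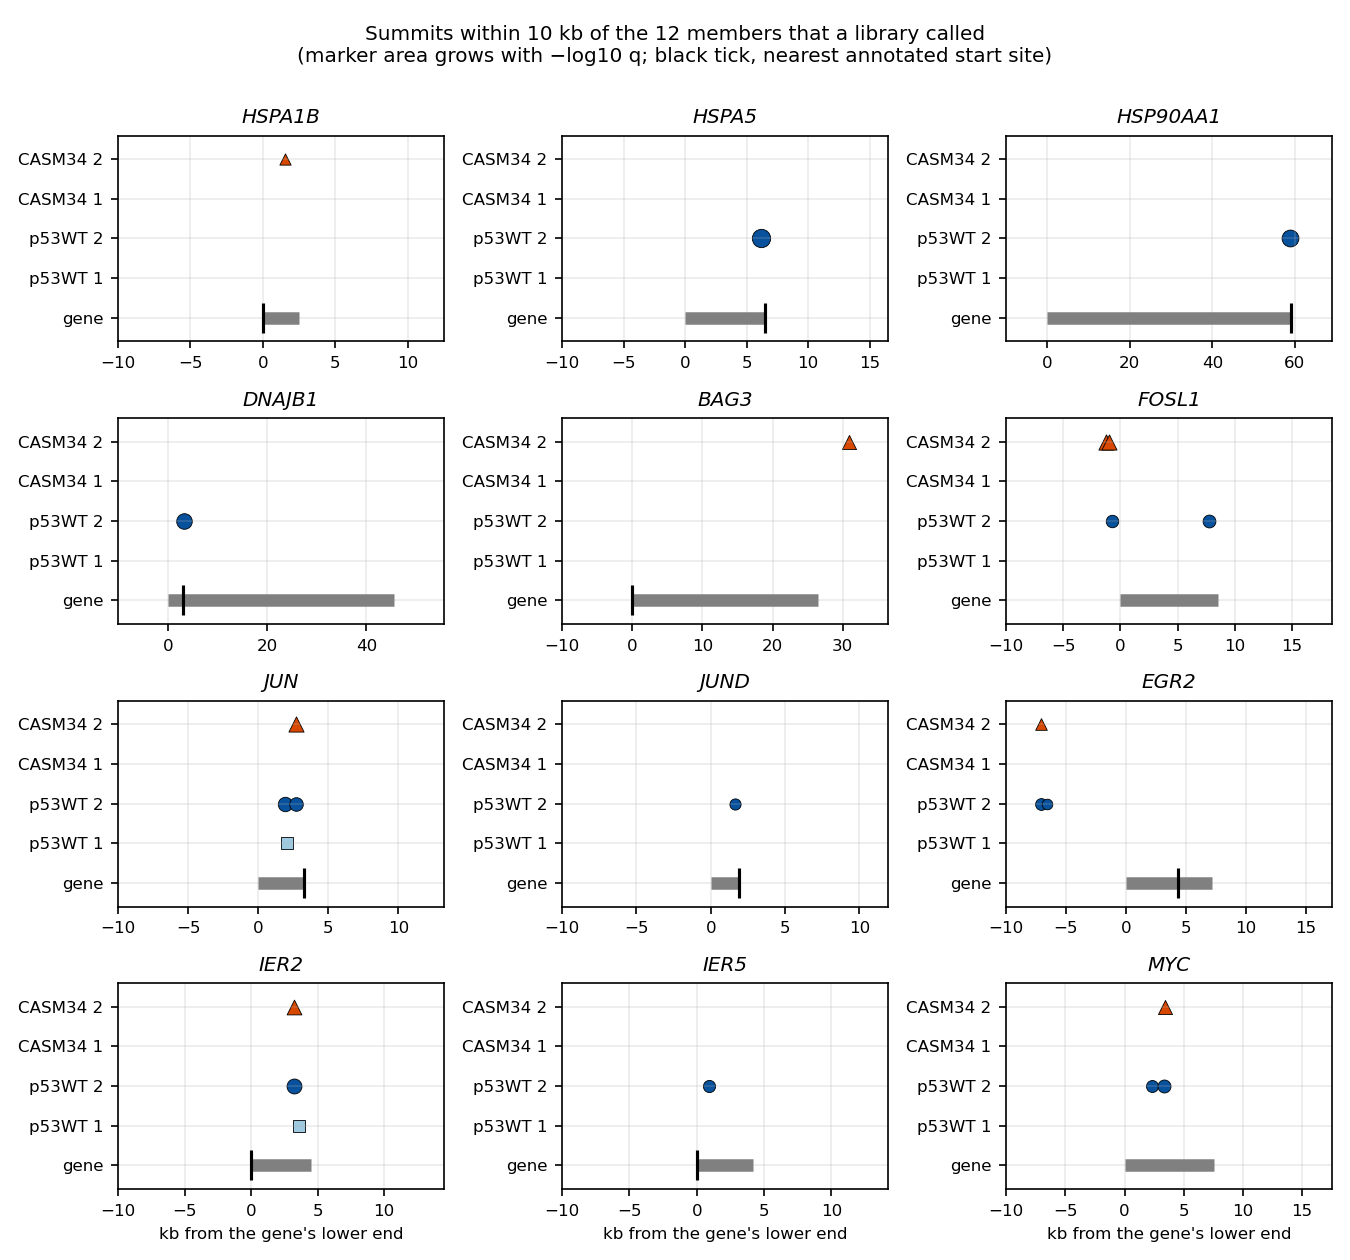
Summits within 10 kb of the 12 members that a library called, 1 panel per gene, with distance from the gene's lower end in kb (x axis) and library (y axis). Grey bars are genes, black ticks the annotated start site nearest to a summit (none was used for FOSL1 and MYC), and marker area grows with −log10 q; JUN and IER2 carry summits of 3 libraries inside the gene, EGR2 only summits about 7 kb outside it.

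The heat shock element was found mostly in promoters of chaperones. Promoters of 300 bases, from 250 before to 50 after a start, were listed for all 15 chaperones and for 16 of the 20 early response genes, not for FOSL1, EGR3, IER3 and MYC. A gene counted when any of its listed promoters held the motif. A heat shock element was found for 11 of 15 chaperones (73.3%) and 2 of 16 early response genes (12.5%), against 14.9% of 15843 protein-coding genes. The CArG box was found for EGR1 and EGR2 alone (12.5% of the early response genes), against 1.69% of all genes. GC boxes were found for 93.3% of chaperones and 81.2% of early response genes, against 64.3% of all. The CRE core was found for 66.7% and 68.8%, against 34.6% of all.

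Called and uncalled members were set side by side for the same motifs, with no test. A heat shock element was found for 5 of the 10 called members with a promoter and 8 of the 21 uncalled. HSP90AA1 and DNAJB1 are among these called members, with 2 and 3 listed promoters. Their printed bases, beside the peak, precede only 1 of the listed starts of each gene and held no heat shock element. The element counted for each of these genes was thus not within the printed bases. The NF-Y box was found for 7 of the 10 called and 6 of the 21 uncalled, against 42.1% of all genes. The TATA box went the other way, with 1 of the 10 called and 7 of the 21 uncalled, against 12.4% of all genes. The GC box (90.0% of called and 85.7% of uncalled) and the CRE core (70.0% and 66.7%) were nearly level. A p53 decamer was found for 1 of the 31 members, HSP90AA1, against 8.07% of all genes. Only listed promoters were searched, and most member summits lay outside them. The sequence under those summits was not read, so these counts do not tell whether the peaks hold p53 sites. HSPA1A and HSPA1L, and likewise HSPD1 and HSPE1, are divergent neighbours whose promoters share bases, so they do not count independently.

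**Figure D3:**
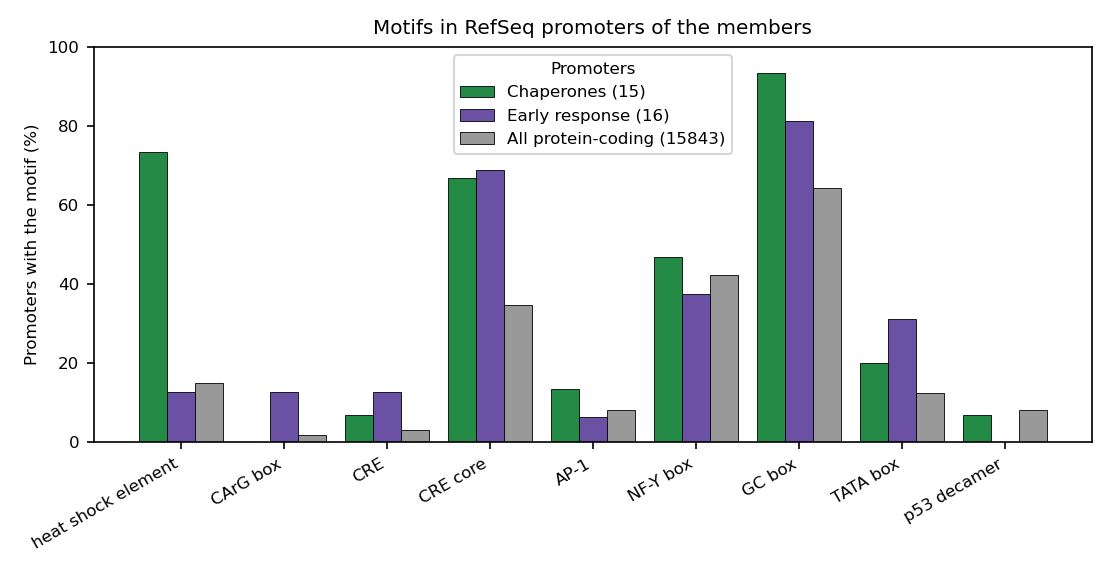
Percent of genes with at least 1 match to a motif in a listed RefSeq promoter of 300 bases (y axis), by motif (x axis), for 15 chaperones, 16 early response genes and all 15843 protein-coding genes with a promoter. Heat shock elements stand at 73.3% in chaperones, 12.5% in early response genes and 14.9% in all genes.

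Peaks seldom met a listed promoter, among the members as among all protein-coding genes. The listed promoters end shortly after the start, so a peak further downstream, such as that of HSPA5, did not count. In p53WT 2 the peaks of DNAJB1 and JUND met a listed promoter, 2 of the 31 members with one, against 5.01% of all protein-coding genes with one. In the other libraries no member's promoter was met, against 0.0568% of genes in p53WT 1, 0.0694% in CASM34 1 and 2.77% in CASM34 2. Of the 14 member summits of p53WT 2, 11 lay inside the gene, and of the 8 of CASM34 2, 4 did. Over all pairs of a protein-coding gene and a summit within 10 kb, 59.7% were inside in p53WT 2 and 58.7% in CASM34 2. The exons and introns of these genes were not used here.

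Among the members called in p53WT 2, the peaks of the 3 chaperones ranked above those of the early response genes. The 3 chaperone summits had a −log10 q of 4.39 to 6.56, at or above 68.1% to 79.5% of the list, and the 11 early response summits 1.40 to 3.94, at or above 10.7% to 64.4%. These ranges do not overlap, but they cover few genes. Among the other pathway genes named below, the chaperones HSPA6 and DNAJC21 had 1.40 and 2.02 in p53WT 2. The early response summits named there ran from 1.35 (IER5L) to 5.64 (PHLDA1) in p53WT 2. In CASM34 2 the 2 chaperone summits, at 1.72 and 3.41, lay within or below the range of the 6 early response summits, 1.93 to 4.18. Over all members the median −log10 q was 2.64 in p53WT 2 and 3.62 in CASM34 2, against list medians of 2.88 and 3.68.

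In p53WT 1 the peaks of JUN and IER2, at 1.66 and 1.61, ranked at or above only 3.07% and 2.58% of a list with a median of 7.90. At a −log10 q of at least 3 no member remained in p53WT 1. Of the 5 members called in both libraries numbered 2, JUN and IER2 were still called in both at that threshold, while 1.58% of all protein-coding genes were. With lists of equal length, p53WT 2 called HSPA5, HSP90AA1, DNAJB1 and IER2 (3.05% of all genes), and CASM34 2 called FOSL1, JUN and IER2 (3.23%).

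**Figure D4:**
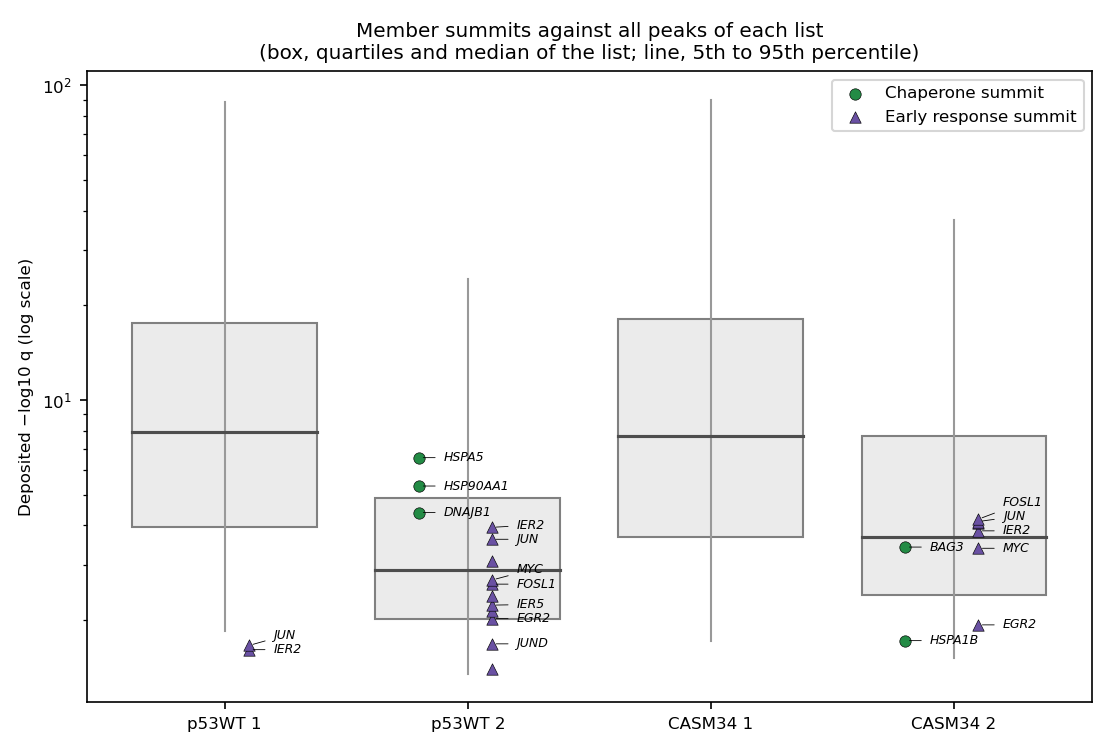
Deposited −log10 q (y axis, log scale) of every summit within 10 kb of a member, by library (x axis), for chaperones (circles) and early response genes (triangles); names stand at each gene's highest summit. Boxes give the quartiles and median of all peaks in the list and lines the 5th to 95th percentile; the chaperone summits of p53WT 2, from 4.39 to 6.56, stand above its early response summits, and those of p53WT 1 stand below the line.

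The calls shared by p53WT 2 and CASM34 2 were all early response genes. Of the 7 early response genes called in p53WT 2, 5 (71.4%) were called in CASM34 2, and of the 5 called in CASM34 2 all were called in p53WT 2. Of the 3 and 2 chaperones none was shared, where 15 genes would hold 0.656 shared genes at the 4.37% of all genes. For all protein-coding genes the 876 shared genes were 31.6% of those of p53WT 2 and 46.3% of those of CASM34 2. Called in p53WT 2 and not in CASM34 2 were 5 members (14.3%) against 9.44% of all genes, and the reverse held for 2 members (5.71%) against 5.07%.

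Averaged over libraries, p53WT called 6.0 ± 5.66 members (SD, n = 2) and CASM34 called 3.5 ± 4.95 members (SD, n = 2). The difference of 2.5 genes was smaller than the spread between replicates. Within number 1 the difference was 2.0 and within number 2 it was 3.0, where p53WT 2 also has the longer list. The percent of all protein-coding genes called was 7.39 ± 9.08 (SD, n = 2) and 5.29 ± 5.87 (SD, n = 2), an exact two-sided permutation p of 1, where 2 libraries against 2 cannot go below 0.33. Its difference was -0.175 percentage points within number 1 and 4.38 within number 2, so the background did not keep its direction between the numbers. Without p53WT 2 the difference was -1.5 members and -4.32 points, and without CASM34 1 it was -1.0 members and -2.05 points. With a −log10 q of 3 or more, p53WT 2 and CASM34 2 called 5 members each (5.56% and 4.73% of all genes) and the libraries numbered 1 called 0, a difference of 0.0 members.

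No library called 23 of the 35 members, 10 chaperones and 13 early response genes, or 65.7% of the list. Of all genes 19.3% were called in at least 1 library, against 34.3% of the members. The uncalled include several of the best-known early response genes. FOS, the partner of JUN in AP-1, had its nearest summit at 284.0 kb for p53WT 1, 497.0 kb for p53WT 2, 1462.5 kb for CASM34 1 and 152.0 kb for CASM34 2. For ATF3, a stress-induced transcription factor, the distances were 15937.4, 158.0, 10360.2 and 987.0 kb in the same order.

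The constitutive HSP70 gene HSPA8 had its nearest summit 7028.9 kb away for p53WT 1, 748.0 kb for p53WT 2, 7028.6 kb for CASM34 1 and 1447.8 kb for CASM34 2. HSP90AB1, the constitutive HSP90 gene, had 877.0, 216.0, 14196.9 and 118.0 kb in that order. Thus the called HSP70 and HSP90 genes, HSPA1B, HSPA5 and HSP90AA1, had relatives with no peak near them. Also without a summit within 50 kb in any library were HSPA9, HSPH1, HSPB1, DNAJA1, FOSL2, EGR3, IER3, KLF4, KLF6, DUSP1 and NR4A1, which with FOS, ATF3, HSPA8 and HSP90AB1 make 15. By library, 2 members had a summit within 50 kb in p53WT 1 (2.55% of all protein-coding genes) and 15 in p53WT 2 (26.7%). In CASM34 1 there were 0 (3.32%) and in CASM34 2 there were 14 (18.4%). The share of all genes within 50 kb in at least 1 library was not computed.

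Over all 35 members the median distance to the nearest summit was 158.0 kb in p53WT 2 and 152.0 kb in CASM34 2, against 174.0 and 330.0 kb over all protein-coding genes. In the libraries numbered 1 it was 4011.7 and 4586.4 kb, against 2881.4 and 2212.2 kb. Members were thus not closer to summits than other genes at the median in those libraries. The members nearest to the 10 kb limit on its inner side were EGR2, at 6.58 kb in p53WT 2 and 7.09 kb in CASM34 2. On its outer side were HSPA1A at 11.4 kb in CASM34 2, through the peak inside HSPA1B, and HSPE1 at 12.6 kb in p53WT 2 and 12.9 kb in CASM34 2.

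**Figure D5:**
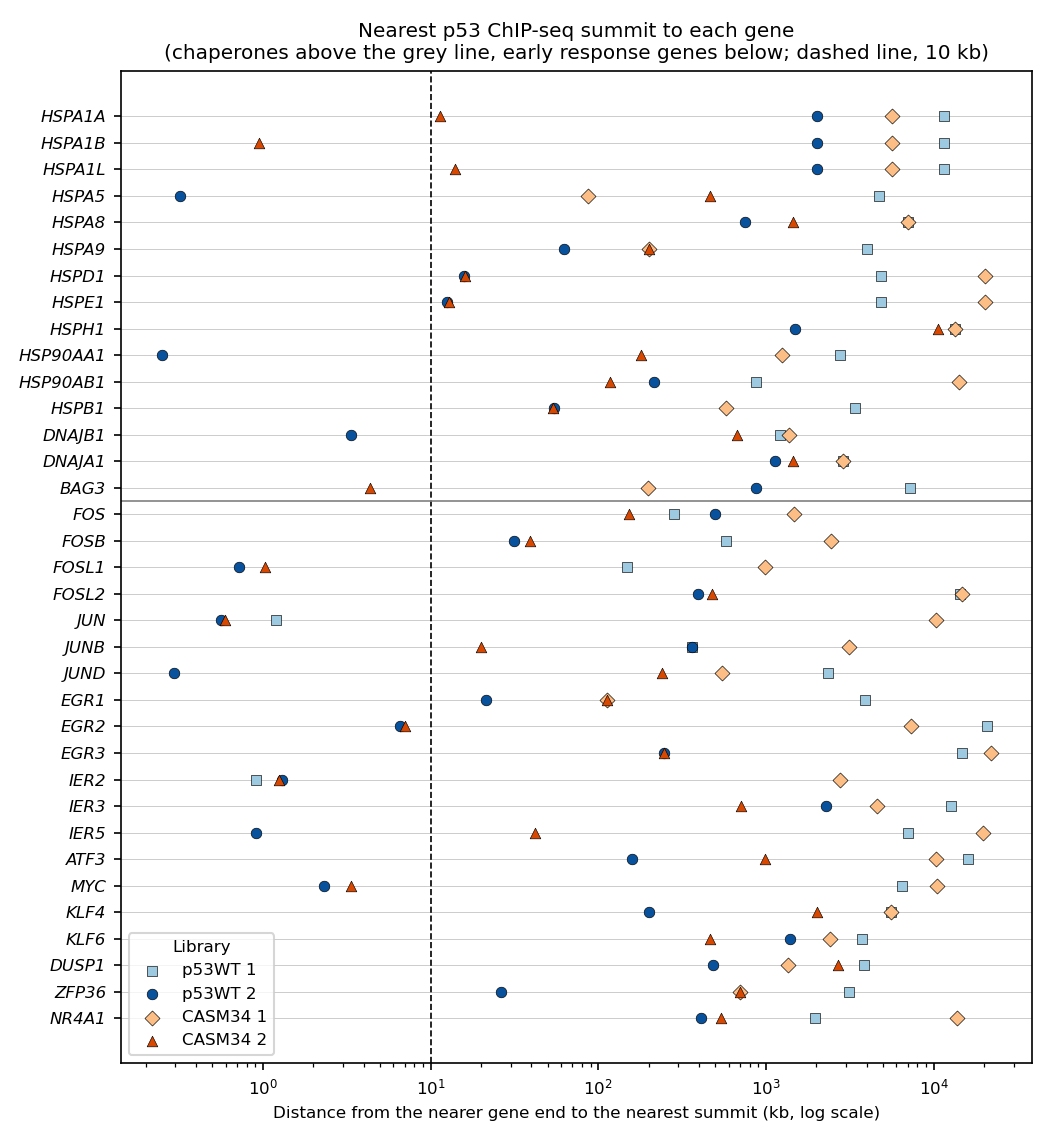
Distance in kb (x axis, log scale) from the nearer end of each of the 35 genes (y axis) to the nearest summit in each library (marker); the dashed line is the 10 kb limit. Most markers of the libraries numbered 1 stand far to the right, with JUN and IER2 in p53WT 1 as the exceptions left of the limit, and EGR2 and HSPA1A stand on either side of the line.

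The members were set beside other genes of the same pathways. Of 68 other chaperone genes, p53WT 2 called 12 (17.6%, against 13.8% of all genes) and CASM34 2 called 5 (7.35%, against 9.44%). The libraries p53WT 1 and CASM34 1 called 0, against 0.968% and 1.14% of all genes. The 2 called in both libraries numbered 2 (2.94% of the list, against 4.37% of all genes) were HSPA6 and DNAJC21. HSPA6 is an inducible HSP70 gene, and DNAJC21 encodes an HSP40 protein of ribosome assembly. HSPA6 had summits 210 and 454 bp inside the gene, with a −log10 q of 1.40 and 1.91. At DNAJC21 the summits lay 446 bp inside the gene in p53WT 2 and 8194 bp outside it in CASM34 2, so these were different peaks.

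Of 67 other early response genes, p53WT 2 called 12 (17.9%) and CASM34 2 called 6 (8.96%), while p53WT 1 called 1 (1.49%) and CASM34 1 called 2 (2.99%). These shares are close to the 13.8% and 9.44% of all genes in the libraries numbered 2, while 7 and 5 of the 20 early response members were called there. Members and lists alike were chosen with earlier results of these data known. Called in both libraries numbered 2 were PHLDA1, IER5L, ID1 and CITED2 (5.97% of the list, against 4.37% of all genes). PHLDA1, an early gene that restrains growth factor signalling, had its strongest summit 366 bp inside the gene in p53WT 2 (−log10 q of 5.64) and 384 bp inside it in CASM34 2 (−log10 q of 4.59).

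At ID1, an inhibitor of helix-loop-helix transcription factors, the summits were 178 bp inside the gene in p53WT 2 and 177 bp in CASM34 2, with a −log10 q of 1.41 and 2.53. CITED2, a coactivator-binding protein, had summits 819 and 171 bp inside the gene, and IER5L, a relative of IER5, 694 and 1251 bp inside it. PER2, a clock gene, was called in both p53WT libraries alone, with summits 3732 and 3810 bp inside the gene and a −log10 q of 2.03 and 2.10. CASM34 1 called DUSP5, a phosphatase of the ERK pathway, and ZFP36L2, an RNA-binding protein, with summits 644 and 1547 bp inside the genes. ZFP36L2 was also called in p53WT 2, 1228 bp inside the gene.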

How the data were processed

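Chromatin bound by p53 was profiled in 4 libraries of H1299 cells, 2 per group, with chromatin cut by micrococcal nuclease and sonicated, per the labels' protocols. Per the submitters' processing notes, reads were handled with Trim Galore, Bowtie2 and bedtools, on GRCh38. Which peak caller, control and threshold were used is not given in the sources used here. Peaks were deposited as 1 list per library. Every peak carries the authors' fold, a ratio to background at the summit, the authors' −log10 p and −log10 q, beside the authors' score, which was left unused. These values served for ranking and filtering inside 1 list only. No list carries read counts, so depth is unknown.

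Computed here with Python 3.11.15 and pandas 2.3.3: each summit (1-based), its distance to either end of 20037 RefSeq protein-coding genes (GRCh38.p14) on chromosomes 1 to 22, X and Y, and the call within 10 kb. All 35 members matched the table; 1 entry of the other pathway lists, HSPB11, did not. Start sites and strands came from the RefSeq promoter table. Rows that share an interval count as separate summits. The calling step was tested on simulated data. The members and lists were chosen with earlier results of these data known. No set test was run, and counts are set beside the share of all genes called. Every member with a peak is named, as are other pathway genes called in both libraries numbered 2 or in a library numbered 1, and promoters are shown for members with a summit within 1 kb of a start. Alternatives covered the distance, peaks inside genes, peak intervals, −log10 q thresholds, lists of 1776 peaks each, 1 row per interval, left-out libraries and, added after seeing the data, the nearest gene only and the replicate number as a block.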

Additional observations from a re-analysis of the deposited data

How the results depend on the processing

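With the replicate number as a block, added after seeing the data, the difference in the percent of all genes called stayed at 2.1 points, with an exact two-sided sign-flip p of 1, where 2 pairs cannot go below 0.5. The labels do not say that a number marks a shared culture or day, and the counts of members carry no test. Of 144 values recomputed, 110 stayed within 1.5 times of a count, within the replicate spread for the difference in mean member number, or on the same side of 0 for the difference in percent. Among these, 3 values of the difference in mean member number (2.5 as reported) were at or below 0: 0.0 at a −log10 q of at least 3, -1.5 without p53WT 2 and -1.0 without CASM34 1. It ran from -1.5 to 6.5 with each library left out. Also among the 110 are counts of 0 that stayed 0, such as those of CASM34 1 in every setting. A stricter setting cannot raise a count of 0.

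Percentages in brackets are the share of all protein-coding genes called in the same library and setting. Within 2 kb CASM34 2 had 4 members (6.94%), 1 chaperone and 3 early response genes, and both libraries numbered 2 shared 3 (3.06%). Within 50 kb CASM34 2 had 14 members (18.4%), 6 chaperones and 8 early response genes, p53WT 2 had 5 chaperones (26.7%), and 9 members were shared (10.3%). At a −log10 q of at least 3, p53WT 1 had 0 members (0.609%) and 0 early response genes, p53WT 2 had 5 members (5.56%) and 2 early response genes, CASM34 2 had 5 members (4.73%) and 1 chaperone, and 2 were shared (1.58%). At a −log10 q of at least 5, p53WT 2 had 2 members (1.53%) and 0 early response genes, p53WT 1 (0.429%) and CASM34 2 (1.32%) had 0 of each kind, and 0 were shared (0.524%). With lists of equal length p53WT 2 had 4 members (3.05%) and 1 early response gene, CASM34 2 had 3 (3.23%), 0 chaperones and 3 early response genes, and 1 was shared, IER2 (0.963%). Counting the nearest gene only, CASM34 2 had 3 early response genes (6.9%) and 3 were shared (3.05%). The cause of these changes was not tested. The difference in the percent of all genes called was -0.0724 with lists of equal length and ran from -4.32 to 8.52 with each library left out, falling below 0 without p53WT 2 (-4.32) and without CASM34 1 (-2.05).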

Other observations

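Beyond the 10 kb limit, 8 of the uncalled members had a summit within 50 kb in at least 1 library. Of all protein-coding genes, 26.7% had a summit within 50 kb in p53WT 2 and 18.4% in CASM34 2. The closest match between the summits of p53WT 2 and CASM34 2 near any member was such a distant peak: 42174 bp from the end of IER5 in p53WT 2 and 42169 bp from it in CASM34 2, with summits 5 bp apart, an overlap of 319 bp and a −log10 q of 4.17 and 4.51. It lies in no annotated gene of the RefSeq table. In p53WT 2 this peak ranked above the one inside IER5 (−log10 q of 2.23), and CASM34 2 listed none inside IER5.

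HSPE1 and HSPD1, the paired co-chaperonin and chaperonin genes of the mitochondrion, had 1 common peak in both libraries numbered 2. It lay inside the neighbouring MOB4 and also inside the annotated gene HSPE1-MOB4, with summits 460 and 790 bp from an end of MOB4. The peaks overlapped by 54 bp, and their −log10 q was 1.35 in p53WT 2 and 5.29 in CASM34 2. Other distant peaks were also near the end of a neighbour: 120 bp inside RPS16, for ZFP36, and 710 bp outside VASP, for FOSB, both in p53WT 2, and 336 bp inside RNASEH2A, for JUNB, in CASM34 2. EGR1 had a summit 21532 bp from its end in p53WT 2, with a −log10 q of 1.95. These peaks were chosen to be shown after their values were seen.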
